A study of Mus musculus with 3 samples.

Results

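The aquaporin family was examined in the initial segment and caput of the mouse epididymis. The members were the 10 genes Aqp1, Aqp2, Aqp3, Aqp4, Aqp5, Aqp6, Aqp7, Aqp8, Aqp9 and Aqp11, chosen by name from the 24346 genes of the deposited expression table. Aqp12 and Mip, the lens aquaporin, belong to the same superfamily but were not among the members, and both were listed at 0 in every library. All tissue came from untreated 14-week-old mice labelled Ovch2-/-, a genotype that lacks the secreted protease ovochymase 2. Ovch2 RNA stood at 4.50, 80.2 and 77.2 FPKM in replicates 1, 2 and 3. No source used here says which of its exons were removed, so these levels did not check the label, and replicate 1 differed widely from the others. The strain is not stated in the labels. The labels gave 1 group of 3 libraries, named replicates 1, 2 and 3, and do not say whether each was a separate animal, so the spread between libraries may be technical. No tissue with intact Ovch2 was analysed here, so no value is an effect of the genotype, and no test between groups was possible. Levels are FPKM, in which sequenced fragments are divided by transcript length and by the library's total, so that genes can be compared with each other.

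Aquaporins are membrane channels that let water cross cells along osmotic gradients. The classical aquaporins pass mainly water, the aquaglyceroporins (Aqp3, Aqp7 and Aqp9) also pass glycerol and other small solutes, and Aqp11 belongs to a divergent group found largely on intracellular membranes. The efferent ducts and the proximal epididymis take up fluid that leaves the testis, which concentrates the sperm. In rodents, AQP9 is known as the main aquaporin on the apical membrane of epididymal principal cells, AQP1 is known from efferent ducts and blood vessel walls, and AQP3 has been placed in basal cells of the rat epididymis.

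Each channel is built around a pair of short boxes that meet in the pore, and the codons of these boxes are shown for the 3 genes with appreciable RNA and for Aqp7, whose boxes differ. Each coding stretch carries the 9 bases of the box in capitals and 15 bases on either side, read 5′ to 3′ on the gene's strand from the GENCODE M21 transcripts of GRCm38 (mm10).
Aqp9 box 1: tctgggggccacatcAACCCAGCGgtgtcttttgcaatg
Aqp9 box 2: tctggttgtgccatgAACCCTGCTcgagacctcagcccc
Aqp1 box 1: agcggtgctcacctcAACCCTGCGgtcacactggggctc
Aqp1 box 2: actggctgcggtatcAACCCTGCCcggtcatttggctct
Aqp11 box 1: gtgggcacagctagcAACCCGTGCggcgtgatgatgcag
Aqp11 box 2: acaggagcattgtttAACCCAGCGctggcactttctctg
Aqp7 box 1: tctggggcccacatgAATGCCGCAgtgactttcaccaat
Aqp7 box 2: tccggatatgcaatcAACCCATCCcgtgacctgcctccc
Both boxes of Aqp9 and Aqp1 spell asparagine, proline and alanine codons, starting at codons 84 and 216 of 295 in Aqp9 and at codons 76 and 192 of 269 in Aqp1. Box 1 of Aqp11, at codon 99 of 271, ends in a cysteine codon, while its box 2, at codon 216, has the usual alanine. In Aqp7 the first box, at codon 79 of 303, has an alanine codon in place of proline, and the second, at codon 211, ends in a serine codon. The 5 other members read, Aqp2, Aqp3, Aqp5, Aqp6 and Aqp8, had the usual codons in both boxes, and Aqp4 was not read. On GRCm38, Aqp9 box 2 lies in exon 5 of 6 at chr9:71122835-71122873 on the minus strand. The stretch shown for box 1 of Aqp9 crosses an exon junction. Aqp1 box 1 lies in exon 1 of 4 at chr6:55336701-55336739 on the plus strand, and Aqp11 box 1 in exon 1 of 3 at chr7:97737670-97737708 on the minus strand.

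Of the 10 members, 3 reached a mean of 1 FPKM or more, against 53.7% of all genes in the table. The remaining 7 stayed under 1 FPKM in every library. Together these 7 summed to 1.33, 0.807 and 0.678 FPKM in replicates 1, 2 and 3, or 2.55%, 0.910% and 0.884% of the summed aquaporin FPKM. The mean share was 1.45 ± 0.956% (SD, n = 3), and 0.897% without replicate 1, which carried the higher share. The summed aquaporin FPKM was therefore almost all from Aqp9, Aqp1 and Aqp11. The same 3 genes passed with the threshold on the mean set at 0.5 or 5 FPKM.

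**Figure D1:**
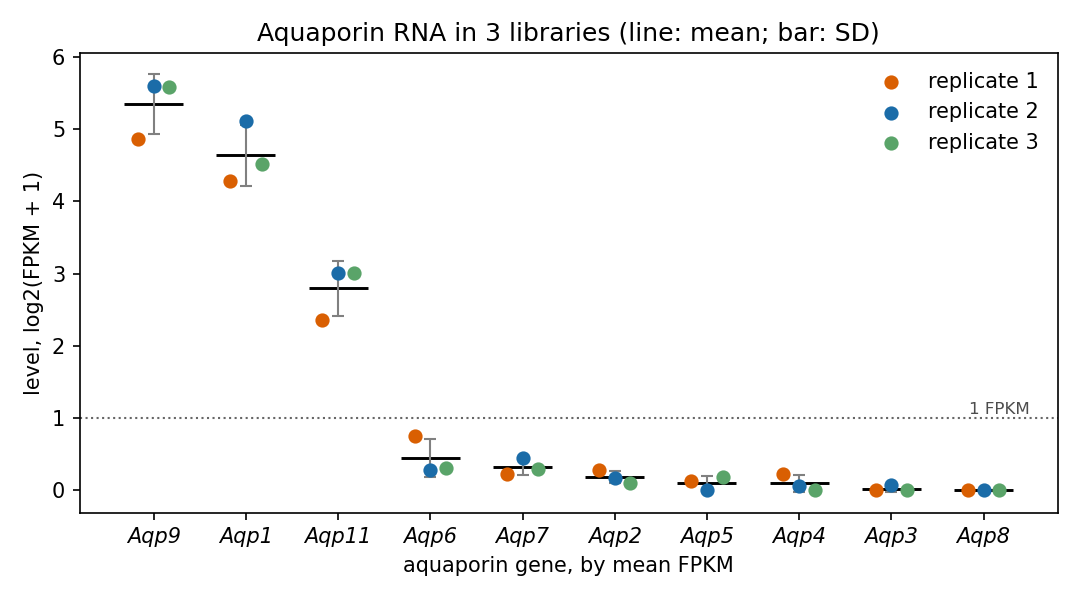
Level of each aquaporin on the log2(FPKM + 1) scale (vertical axis), with 1 point for each of the 3 libraries, a line at the mean and a bar of 1 SD, ordered by mean FPKM (horizontal axis). Aqp9, Aqp1 and Aqp11 lie well above the dotted line at 1 FPKM and all have their lowest point in replicate 1, while the other 7 genes lie under the line in every library.

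Aqp9, the aquaglyceroporin of principal cells, was the most abundant member. It was read at 28.2, 47.2 and 47.1 FPKM in replicates 1, 2 and 3, a mean of 40.8 ± 10.9 FPKM (SD, n = 3). Replicates 2 and 3 were almost equal and replicate 1 was lower, with a 1.67-fold range between the highest and the lowest library. The gene ranked 2190 of 24346 by mean, at the 87.5th, 92.3rd and 92.1st percentiles of the 3 libraries. It held 54.1%, 53.3% and 61.3% of the summed aquaporin FPKM, or 56.2 ± 4.45% (SD, n = 3). Aqp9 (NCBI gene 64008) spans chromosome 9 from 71110659 to 71168682 on the minus strand, with 10 annotated transcripts of which 3 are coding. A noncoding antisense gene, Gm32511, overlaps it over 4889 bases and stood at 1.51, 2.85 and 3.12 FPKM. No source used here states the strand setting of the authors' quantification, so fragments of the 2 genes cannot be told apart where they overlap.

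Aqp1, the water channel of vessel walls and red cells, was the next in order. It stood at 18.5, 33.5 and 21.9 FPKM in replicates 1, 2 and 3, or 24.6 ± 7.88 FPKM (SD, n = 3). Replicate 2 was the high library and replicate 3 lay nearer to replicate 1, whereas for Aqp9 it lay beside replicate 2. Aqp9 was above Aqp1 within each of the 3 libraries, by 1.53, 1.41 and 2.15 times. The ranges of the 2 genes nevertheless overlapped, because Aqp1 in replicate 2 lay above Aqp9 in replicate 1. Without replicate 1 they did not overlap, with means of 47.1 FPKM for Aqp9 and 27.7 FPKM for Aqp1. Aqp1 (NCBI gene 11826) spans chromosome 6 from 55336432 to 55348555 on the plus strand and has 1 annotated transcript.

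Aqp11, the divergent member with the cysteine codon in its first box, was the last of the 3. Its level was 4.14, 7.08 and 7.06 FPKM in replicates 1, 2 and 3, or 6.09 ± 1.69 FPKM (SD, n = 3). As for Aqp9, replicates 2 and 3 were almost equal and replicate 1 was lower. The ratio of Aqp9 to Aqp11 was 6.82, 6.67 and 6.67 in the 3 libraries, while that of Aqp1 to Aqp11 was 4.47, 4.74 and 3.10. Thus the pair Aqp9 and Aqp11 kept a nearly constant proportion in these libraries and Aqp1 did not. The spread of the Aqp9 to Aqp11 ratio (6.72 ± 0.087, SD, n = 3) was smaller than the estimated counting error of Aqp11 alone, 5.58% to 6.63%. The counts therefore cannot resolve a proportion this constant. The range of Aqp11 overlapped with neither Aqp1 above it nor Aqp6 below it. Aqp11 (NCBI gene 66333) spans chromosome 7 from 97724006 to 97738289 on the minus strand.

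Low values in this table could be read as small numbers of fragments. Over genes with 1 annotated transcript, FPKM multiplied by transcript length less 210 to 220 bases gathered at whole multiples of a common step, and 76.4% to 80.4% of 318 to 404 low values per library fell within 0.1 of a whole number of steps. One step was worth 0.0642, 0.0778 and 0.0894 FPKM times kilobases in replicates 1, 2 and 3. If FPKM was scaled by the library total, these steps correspond to about 15600000, 12900000 and 11200000 fragments. The numbers of fragments below are estimates from these steps and from 1 annotated coding transcript for each gene, and they depend on that length where a gene has several transcripts. No counts were used.

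By this estimate, Aqp9 rested on about 1070, 1478 and 1277 fragments, Aqp1 on 696, 1042 and 590.0, and Aqp11 on 227, 321 and 278. The corresponding counting errors, as 1 over the square root of the fragments, were at most 3.06% for Aqp9, 4.12% for Aqp1 and 6.63% for Aqp11. The difference of replicate 1 from replicate 2 was thus larger than counting error for each of the 3 genes. Counting error does not cover differences between animals, dissections or library preparations.

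Aqp6, an anion-passing aquaporin known from kidney intercalated cells, led the low members. It stood at 0.689, 0.210 and 0.241 FPKM in replicates 1, 2 and 3, or about 19.9, 5 and 4.95 fragments. Replicate 1 was the high library, opposite to the 3 abundant genes. Aqp7, an aquaglyceroporin of fat cells and spermatids, stood at 0.165, 0.370 and 0.231 FPKM, or about 5.97, 11.0 and 5.96 fragments. It was highest in replicate 2, and its range overlapped with that of Aqp6. Aqp2, the vasopressin-regulated channel of the kidney collecting duct, stood at 0.212, 0.129 and 0.0739 FPKM, which correspond to 3.99, 2.01 and 0.99 fragments.

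The last 4 members by mean FPKM were each listed at 0 in 1 library or more. Aqp5, a channel of gland and airway epithelium, stood at 0.0952, 0 and 0.133 FPKM, and Aqp4, the main aquaporin of astrocytes, at 0.170, 0.0478 and 0. For Aqp4 replicate 1 corresponded to about 12.8 fragments on its longest coding transcript that is paired with RefSeq and replicate 2 to 2.98. Aqp3, an aquaglyceroporin of basal cells and skin, was listed at 0 in replicates 1 and 3 and stood at 0.0501 FPKM in replicate 2, 1 fragment by the estimate. Aqp8, an aquaporin of spermatids, liver and gut, was listed at 0 in all 3 libraries, as were 23% of all genes. From Aqp6 downward, each neighbouring pair in the order had overlapping ranges, so neighbours among these 7 could not be ranked. Over longer steps some ranges were separate, as that of Aqp6 lay above those of Aqp5, Aqp4, Aqp3 and Aqp8, and that of Aqp7 above those of Aqp5, Aqp3 and Aqp8. Zeros are read with caution, since even the ribosomal protein gene Rpl26 was listed at 0 in replicates 1 and 3.

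**Figure D2:**
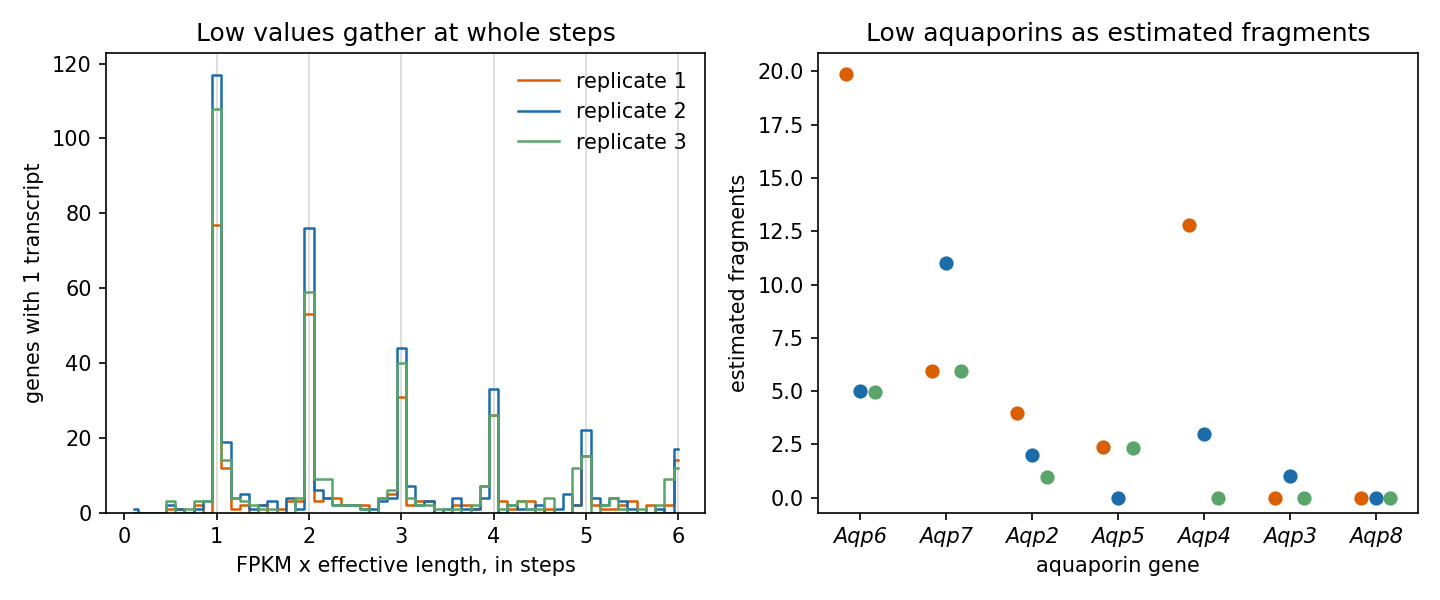
Left, number of genes with 1 annotated transcript (vertical axis) by FPKM times effective length in units of the fitted step (horizontal axis), for each library, with peaks at whole steps. Right, estimated fragments (vertical axis) of the 7 low aquaporins (horizontal axis) in each library, of which Aqp6 in replicate 1 has the most, about 19.9, and Aqp8 has none.

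Of the 7 low members, 5 lay beside another low member on their chromosome. Aqp2, Aqp5 and Aqp6 follow each other on chromosome 15, on the plus strand, between 99579055 and 99605477, with gaps of 6234 and 6570 bases. Aqp7 and Aqp3 lie on the minus strand of chromosome 4 between 41033074 and 41098183, with 44582 bases between them. Aqp9, Aqp1 and Aqp11 lie on 3 different chromosomes with no other member nearby. Aqp8 shares chromosome 7 with Aqp11 but begins at 123462291, far from it, and Aqp4 is alone on chromosome 18.

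The libraries differed in more than the aquaporins. Replicate 1 stood apart across the table, with correlations across genes (Pearson's r of log2(FPKM + 1)) of 0.965 and 0.969 against the other libraries, which had 0.989 with each other, and no pair of libraries held identical values. The 8 listed principal cell genes included Gpx5 at 25918, 35882 and 32210 FPKM, the gene of highest mean. Of the 8, 7 were lowest in replicate 1, against 41.2% of all genes with a mean of 1 FPKM or more. These included Lcn9, listed at 0 there against 5415 and 6106 FPKM, and Lcn8 at 8.58, 14252 and 15342 FPKM. Crisp1 stood at 2.07, 758 and 171 FPKM, and Rnase10, a gene of the initial segment, at 2.58, 3077 and 2708 FPKM. The other gene, Lcn5, named after its values were seen, was highest in replicate 1, at 21673, 4290 and 13581 FPKM. Several markers of the labelled region were thus low or at 0 in replicate 1.

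All 3 abundant aquaporins had their lowest value in replicate 1, as were 41.2% of the 13073 genes whose mean reached 1 FPKM. All 3 were also highest in replicate 2, as were 34.4% of those genes, although Aqp9 and Aqp11 were almost as high in replicate 3. None lay 2-fold or more from both other libraries on the FPKM + 1 scale in any library, against 6.56% of those genes. At 1.5-fold, a setting added after seeing the data, Aqp9 and Aqp11 lay below both other libraries in replicate 1, against 8.09% of genes, and Aqp1 lay above both others in replicate 2, against 1.25%. Deviations from each gene's own mean were taken on the log2(FPKM + 1) scale. Aqp9 deviated by -0.48, 0.24 and 0.24, Aqp11 by -0.43, 0.22 and 0.22, and Aqp1 by -0.35, 0.47 and -0.12 in replicates 1, 2 and 3. The SD over libraries was 0.42 for Aqp9, 0.43 for Aqp1 and 0.38 for Aqp11, and the median SD of all genes at that level was 0.19. With 1 group of 3 libraries these are descriptions with no p-value.

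**Figure D3:**
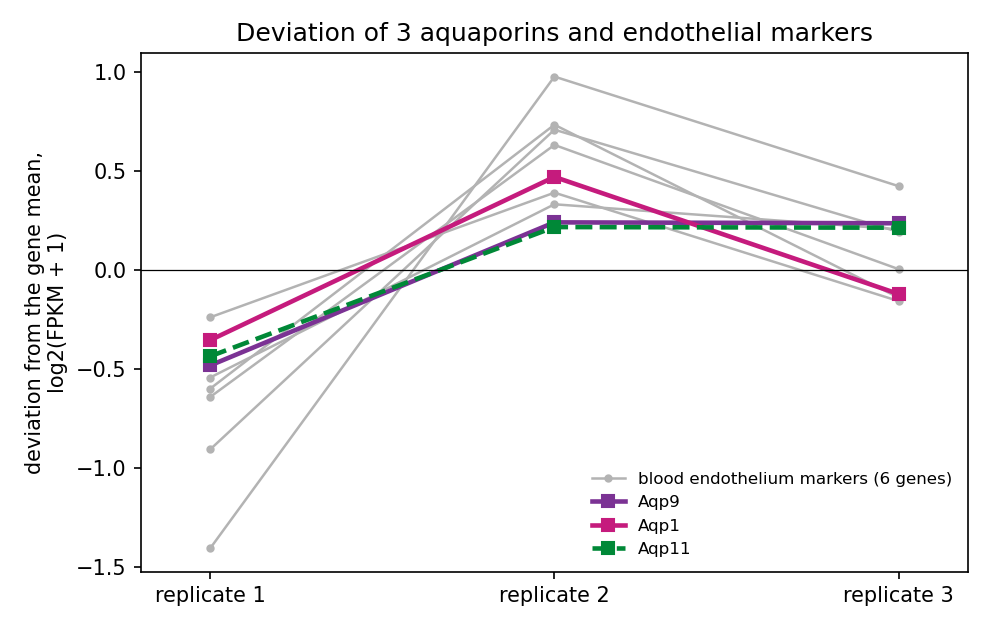
Deviation of each gene from its mean over the 3 libraries on the log2(FPKM + 1) scale (vertical axis) by library (horizontal axis), for Aqp9, Aqp1, Aqp11 and 6 markers of blood endothelium, with lines that join the values of a gene and imply no order. Aqp9 and Aqp11 lie together at about -0.48 and -0.43 in replicate 1 and above 0 in the others. Aqp1 peaks at 0.47 in replicate 2, as all 6 endothelial markers and, by a small margin, Aqp9 and Aqp11 do. In replicate 3 Aqp1 lies at -0.12, while the median of the 6 endothelial markers is 0.10.

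Markers of cell types in which aquaporins are known were set beside the aquaporin values. In whole tissue, fewer cells of a type and less RNA per cell cannot be told apart. All 6 blood endothelium markers were lowest in replicate 1 and highest in replicate 2, as were Aqp1, Aqp9 and Aqp11. Of all genes with a mean of 1 FPKM or more, 41.2% were lowest in replicate 1 and 34.4% highest in replicate 2. The share with both was not counted. The summed level of the 6 markers was 19.6, 64.2 and 42.3 FPKM, a wider range than that of Aqp1. Kdr, a VEGF receptor gene and the lowest of them, stood at 1.71, 5.84 and 2.73 FPKM, and Plvap, a gene of fenestrated vessels, at 2.79, 18.8 and 12.5 FPKM. Over the 6 markers, the ratio of Aqp1 to the marker varied least for Cdh5, from 4.96 to 5.47, and most for Plvap, from 1.76 to 6.63. The ratio ranged from 2.77 to 4.18 for Pecam1, from 4.54 to 7.50 for Tie1, from 5.74 to 10.8 for Kdr and from 2.04 to 4.12 for Emcn, so of the 6 only Cdh5 stayed within a narrow range. The red cell gene Hba-a1 followed another order, at 8.46, 31.5 and 119 FPKM. Of the other 4 red cell markers in the table, only Alas2, named after its values were seen, passed 0.5 FPKM in any library, and how reads were divided among the closely similar haemoglobin genes is uncertain. Efferent duct cells could also carry Aqp1, and their 5 ciliated cell markers stood at unlike levels. Rsph1 was the highest at 14.0, 15.4 and 16.0 FPKM, while the axonemal dynein gene Dnah9 was the lowest at 0.310, 0.172 and 0.210 FPKM. Of the other three, chosen after their values were seen, Foxj1 stood at 11.0, 4.04 and 7.10 FPKM, Tekt1 at 2.29, 2.08 and 2.01 FPKM, and Dnah5 at 0.268, 0.191 and 0.277 FPKM. The part of each cell type in the level of Aqp1 was not tested.

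Basal cell markers were plentiful while Aqp3 was not. Krt5, a keratin of basal cells, stood at 84.8, 48.8 and 52.9 FPKM, and 4 of the 5 basal cell markers had a mean of 1 FPKM or more, against 53.7% of all genes. The exception was Dsg3, at 0.0163 FPKM in replicate 1 and listed at 0 in the others. Of the 4, 2 were highest in replicate 1 and 2 were lowest there, among the latter Itga6 at 4.48, 11.6 and 10.2 FPKM. In the same libraries Aqp3 reached no more than 0.0501 FPKM.

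The spermatid and sperm markers were listed at 0 in replicate 1 except for Tnp1, and summed to 0.301, 176 and 248 FPKM. Prm2, the highest of them, stood at 0, 73.4 and 117 FPKM. Beside these, Aqp7, known from spermatids, stood at 0.165, 0.370 and 0.231 FPKM, lowest in replicate 1 as well but not at 0. These values rest on about 5.97, 11.0 and 5.96 estimated fragments, with counting errors of 40.9%, 30.1% and 41.0%. The order of the libraries for Aqp7 was therefore not resolved. Aqp8 was listed at 0 throughout and so could show no contrast. Aqp11, which is also known from spermatids, was at 4.14 FPKM in replicate 1, and at 7.08 and 7.06 FPKM in the others. In replicate 1, 5 of these 6 markers were listed at 0, as were 7141 of all 24346 genes. The share among genes with a mean of 1 FPKM or more was not counted. The part of spermatids in the levels of Aqp7 and Aqp11 was not tested. The 6 adipocyte markers, another possible source of Aqp7, summed to between 0.303 and 1.30 FPKM in the libraries, with Fabp4 the highest at 0.149, 0.728 and 0.625 FPKM and the defining gene Adipoq, named after its values were seen, at 0, 0.0763 and 0.0873 FPKM. All 5 macrophage markers were lowest in replicate 1, against 41.2% of all genes with a mean of 1 FPKM or more. They summed to 83.9, 127 and 137 FPKM, and ranged from Adgre1 at 1.91, 3.76 and 3.22 FPKM to C1qa at 37.6, 54.1 and 61.6 FPKM. AQP9 is also known from myeloid cells, and the part of macrophages in the level of Aqp9 was not tested. In the other direction, clear and narrow cell markers summed to 167, 104 and 93.5 FPKM and smooth muscle markers to 673, 440.0 and 397 FPKM, both highest in replicate 1. Foxi1, the transcription factor of clear and narrow cells, stood at 84.4, 33.4 and 37.3 FPKM, and the smooth muscle actin gene Acta2 at 306, 193 and 178 FPKM. Of the 5 clear and narrow cell markers, 4 were highest in replicate 1, against 38.2% of all genes with a mean of 1 FPKM or more. The exception, Atp6v0d2, named after its values were seen, was lowest there, at 25.9, 41.1 and 29.5 FPKM.

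The 4 lists of genes of water, ion and glycerol handling and of hormonal control held 50 genes in the table, of which 43 had a mean of 1 FPKM or more. Of these, 2 were in replicate 1 lower than in both other libraries by 2-fold or more, against 4.07% of all genes, and 2 lay above them there, against 1.29%. None lay 2-fold apart in replicate 2 or 3. Of all 13073 genes at that level, 857 lay 2-fold apart in any library. Of these, 532 were below and 169 above in replicate 1, so few were called only in replicate 2 or 3. The 2 list genes below in replicate 1 were Cftr and Slc4a4, a sodium bicarbonate cotransporter. Cftr is the chloride and bicarbonate channel that has been found in a complex with AQP9 in the rat epididymis. Cftr stood at 2.02, 11.2 and 7.34 FPKM and Slc4a4 at 2.74, 9.26 and 9.92 FPKM. The 2 above were Slc26a3, a chloride and bicarbonate exchanger, at 11.6, 3.97 and 4.45 FPKM, and Slc6a12, a betaine and GABA transporter, at 6.47, 0.991 and 2.42 FPKM. Of the 16 ion and fluid transport genes with a mean of 1 FPKM or more, 11 were highest in replicate 1, as were 38.2% of all genes at that level and none of the 3 abundant aquaporins. The sodium pump subunit gene Atp1b1 was the highest of that list at 154, 217 and 116 FPKM, and Scnn1g, a subunit gene of the epithelial sodium channel, was the lowest at a mean of 0.159 FPKM.

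Glycerol is a solute that AQP9 passes. Of the 10 glycerol genes with a mean of 1 FPKM or more, 7 were lowest in replicate 1, against the 41.2% of all genes given above. None of the 10 lay 2-fold apart in any library, against 6.56% of all genes at that level. Gk, the glycerol kinase that phosphorylates glycerol after entry (listed under its older symbol Gyk), stood at 19.5, 43.6 and 34.2 FPKM and was chosen after its values were seen. Pgp, a phosphatase that forms glycerol from glycerol 3-phosphate, was the highest at 102 ± 15.7 FPKM (SD, n = 3) and was highest in replicate 1 (120.0 FPKM). Gk2, a germ cell glycerol kinase, was the lowest, at 0, 1.47 and 0.653 FPKM.

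**Figure D4:**
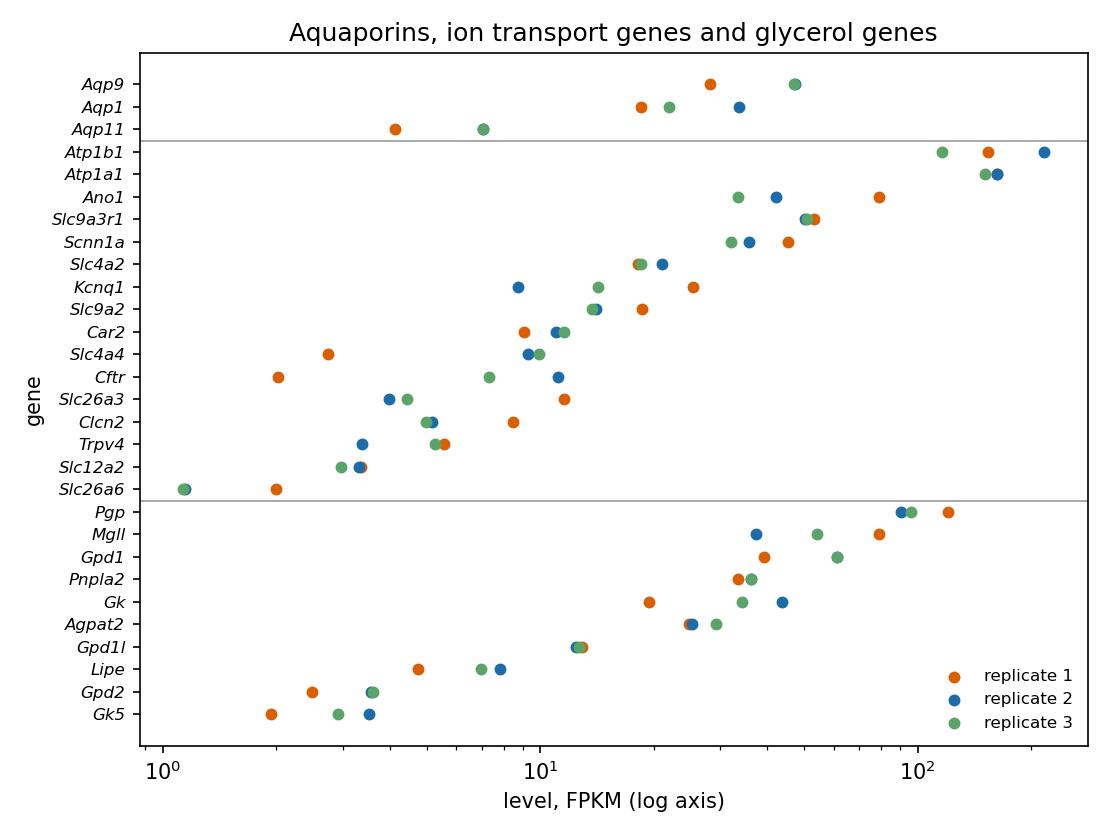
Level in FPKM on a log axis (horizontal) of Aqp9, Aqp1 and Aqp11 (top), the ion and fluid transport genes (middle) and the glycerol genes (bottom) with a mean of 1 FPKM or more (vertical axis), with 1 point for each library. Aqp9 lies between 28.2 and 47.2 FPKM, below the sodium pump genes, and Cftr and Slc4a4 have replicate 1 far to the left of the other libraries.

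The last lists covered osmolytes and hormonal control. Of the 8 osmolyte genes, Sord, which makes fructose from sorbitol, was the highest at 17.4 ± 0.957 FPKM (SD, n = 3), and Akr1b3, an aldose reductase gene, the lowest at 2.45 ± 0.673 FPKM. In the hormone list Prkaca, the kinase subunit through which vasopressin acts on AQP2 in the kidney, was the highest at 45.4 ± 2.98 FPKM (SD, n = 3). Avpr2, the vasopressin receptor of that pathway, was the lowest, at 0.0660, 0 and 0.0590 FPKM, so both Avpr2 and Aqp2 were at the edge of detection.

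The genes most like each abundant aquaporin were sought among the 9225 other genes whose mean reached 5 FPKM, by the distance between deviations over the 3 libraries. For Aqp11 the nearest were Gne, which encodes the key enzyme of sialic acid synthesis, at a distance of 0.0023, Phka1, a phosphorylase kinase subunit gene, at 0.0029, and Mtss1 at 0.0088. Gne stood at 31.4, 50.1 and 49.9 FPKM. For Aqp9 the nearest were Mmgt2 at 0.019, Slc33a1, an acetyl-CoA transporter gene, at 0.026, and Bspry at 0.026. For Aqp1 the nearest were Adcy7, an adenylyl cyclase gene, at 0.010, Akr1c13, an aldo-keto reductase gene, at 0.039, and Cxcl16, a chemokine gene, at 0.053. The pattern of Aqp1 was the least common of the 3. Within a distance of 0.2 lay 84 genes (0.911%) for Aqp1, 403 (4.37%) for Aqp9 and 541 (5.86%) for Aqp11. With 3 libraries many genes share a pattern, so likeness here is only a description.

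Aqp9 and Aqp11 kept a similar proportion over the libraries, though closer than counting error can resolve, and were paired here after that was seen. Shared control of the pair was not tested. The sequences at their starts are shown beside each other. Each is the RefSeq window on GRCm38.p6 of 250 bases before to 50 after an annotated start, 5′ to 3′ on the gene's strand (minus for both), all in lower case, since neither holds any of the 3 motifs searched.
Aqp9, chr9:71163240-71163539: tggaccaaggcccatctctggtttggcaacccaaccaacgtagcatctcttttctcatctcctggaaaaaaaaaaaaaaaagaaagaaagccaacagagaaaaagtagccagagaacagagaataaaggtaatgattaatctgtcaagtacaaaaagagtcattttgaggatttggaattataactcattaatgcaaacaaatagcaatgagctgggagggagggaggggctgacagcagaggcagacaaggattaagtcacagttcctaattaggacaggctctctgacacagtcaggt
Aqp11, chr7:97738198-97738497: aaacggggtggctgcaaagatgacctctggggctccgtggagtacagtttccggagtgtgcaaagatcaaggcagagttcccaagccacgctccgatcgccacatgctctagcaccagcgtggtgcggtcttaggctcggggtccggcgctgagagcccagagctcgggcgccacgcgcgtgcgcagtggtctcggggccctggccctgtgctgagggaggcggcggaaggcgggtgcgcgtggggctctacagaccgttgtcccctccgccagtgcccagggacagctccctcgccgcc
The 2 windows differ widely in composition. That of Aqp9 has 41.3% G and C and 1 CpG, that of Aqp11 has 68.0% G and C and 27 CpGs, and the median over 32851 windows of this length was 52.7% G and C. The observed over expected CpG ratio was 0.0794 for Aqp9 and 0.782 for Aqp11, with a median of 0.384 over all windows. The motifs, searched on both strands, with none contained in another, were AGGAAG (an ETS site of the PEA3 type, in 35.4% of all windows), TATAAA (the TATA box, in 13.6%) and GGGCGG (the GC box, in 35.7%). RefSeq gives Aqp9 a second start, whose window (chr9:71162584-71162883) holds none of them either. The RefSeq span of Aqp9 extends to 71167849, upstream of both windows, and the sequence there was not searched. The Aqp1 window holds AGGAAG at -29 and GGGCGG at -190, counted from the start. Which start the fragments came from is not told by gene-level values, and a match of letters is not a binding site.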

How the data were processed

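RNA from the initial segment and caput was extracted with TRIzol and made into libraries with a stranded, polyadenylated RNA-selecting TruSeq kit, per the labels' protocols. The authors deposited 1 table of normalized FPKM values, per the file headers. TopHat2 2.1.1, Cufflinks 2.2.1 and the build mm10 are named in the submitters' processing notes. No source used here gives the annotation, strand setting or scaling.

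Columns were assigned to samples by name. The total was 729695, 745294 and 814000 FPKM in replicates 1, 2 and 3. Values were analysed as log2(FPKM + 1) without a count model or group test. Coordinates and transcripts are from GENCODE M21 and start windows from RefSeq, both GRCm38. The gene lists (4 functional and 10 of cell markers, 106 of 107 symbols found) and the members were chosen with earlier results of these data known. The naming rule took from each list the genes with the highest and the lowest mean and at most 4 that lay 2-fold apart. Of the marker lists only some of these are printed, beside each list's sum, and genes outside the rule are marked as such. The result of 1 listed gene is not reported here. The scripts recovered changes planted in simulated data. Median-of-ratios scaling, a common sum of 1000000, a pseudocount of 0.1, no filter, other thresholds and the removal of single libraries were tried as alternatives, and a fold of 1.5 was added after seeing the data. Python 3.11.15, numpy 2.4.6 and pandas 2.3.3 were used.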

Additional observations from a re-analysis of the deposited data

How the results depend on the processing

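No paired analysis was possible because the labels give 1 group. Of 174 values recomputed, 157 stayed within the spread between replicates or within 1.5 times a count. Many of these could not have moved. Leaving out 1 of 3 libraries cannot shift a mean level by more than its SD, and scaling whole libraries leaves shares and ratios unchanged. The tally is therefore not a measure of robustness. The number of aquaporins with a mean of at least 1 FPKM was 3 without each library, under both scalings and at thresholds of 0.5 and 5 FPKM. Leaving out 1 library at a time, the Aqp9 share of the summed FPKM ranged from 53.7% to 57.7%, and neighbours in the order with separate ranges numbered 2 to 4 (2 with all libraries), where fewer samples make ranges narrower. Without 1 library, the list genes 2-fold below the remaining one numbered 2 to 4 in replicate 1, 0 to 4 in replicate 2 and 0 to 3 in replicate 3, and those above it 3 to 4, 0 to 4 and 0 to 2. With 2 libraries, a gene is set against 1 other only, and calls mirror each other. The share of all genes called without 1 library was not computed.

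Rescaling to a common sum, which shifts the median gene by 0.42, 0.39 and 0.27 on the log2 scale in replicates 1, 2 and 3, put Aqp9 at 53.3 and Aqp11 at 7.94 FPKM. With no filter, the median deviation over all 10 aquaporins in replicate 1 was -0.012, against -0.43 over the 3 abundant ones. Among the low members, Aqp6, Aqp4 and Aqp2 deviated upward the most there, by 0.31, 0.13 and 0.09. The median over all genes was 0. With a pseudocount of 0.1, 1 list gene lay below both others in replicate 2. At a fold of 1.5, 2 aquaporins lay below in replicate 1 and 1 above in replicate 2. Of the 43 list genes with a mean of 1 FPKM or more, 5 lay below and 6 above in replicate 1 and 2 below in replicate 2. Of all genes at that level, 8.09% lay below in replicate 1 and 1.25% above in replicate 2 at that fold. The shares of all genes for the other counts here were not computed. Depth limits the 7 low members, each of which rests on at most 19.9 estimated fragments in a library.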
